A study of Mus musculus with 5 samples.

Results

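The genes described here mark T lymphocytes and natural killer (NK) cells, which are leukocytes and not endothelium. They were chosen by name as 41 genes of the shared T cell receptor machinery, of naive, regulatory and cytotoxic T cells and of NK cells. Of these, 40 were matched by symbol among the 49315 genes of the count table, and the expression of Bcl11b was not analysed here. Poly(A) RNA of cells isolated as endothelium from mouse lungs was sequenced. The TET2KO group held 2 libraries that the labels assign to an endothelial knockout of TET2, an enzyme of DNA demethylation. The WT group held 3 libraries from wild-type mice. Both groups carried the same treatment, 28 days of infusion with angiotensin II, a vasoconstrictor peptide hormone, and there was no group without it. The labels named no Cre driver, no deleted exons, no age, sex or strain, and no method of cell isolation, and they did not state whether the libraries stem from different animals. The p-values therefore measure library-to-library spread, which may be technical.

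T cells recognise peptide through a T cell receptor whose alpha and beta chains carry no signalling domain of their own. The CD3 chains and the zeta chain, encoded by Cd247, pass the signal on after the kinase Lck has phosphorylated them, and the kinase Zap70 then binds and phosphorylates the adaptor Lat. CD4 and CD8 separate helper from cytotoxic T cells, Foxp3 is the defining transcription factor of regulatory T cells, and NK cells kill with the same granzymes and perforin as cytotoxic T cells but lack a T cell receptor. The lung vasculature holds many such lymphocytes, in the lumen and in the wall.

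Total counts ran from 27346804 to 35440257 per library. Tet2, the targeted gene, had 139 and 162 CPM (counts scaled to the library total, with TMM factors) in TET2KO replicates 1 and 2, against 141, 174 and 131 CPM in WT replicates 1 to 3. Whole-gene counts of Tet2 do not check the genotype, because the labels do not give the exons removed. WT replicate 2 stood apart in cell content. Its macrophage and monocyte list (11 genes) took up 3.18% of all counts, against 0.345% to 1.03% in the other 4 libraries. WT replicate 3 is treated differently by the labels and by the authors' deposited table of fold changes. The fold changes of the authors' deposited table lay within 0.1 on the log2 scale of the ratio of the 2 TET2KO libraries together with WT replicate 3 to WT replicates 1 and 2 for 100% of 12175 genes with a mean of at least 100 normalized counts, and of the ratio of the labelled groups for 32.2%. Groups here follow the labels, which place that library in WT, and the counts of signs and of groups without overlap are also given without WT replicate 2 and without WT replicate 3.

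No T cell or NK cell gene differed between TET2KO and WT past the correction. All 40 genes passed the filter on low counts and were tested by the quasi-likelihood method of edgeR, adjusted after Benjamini and Hochberg over 18727 genes, and 0 of 40 had an adjusted p under 0.05, as did 0% of all genes tested. DESeq2, which called 0.320% of all genes, and limma-voom also called 0 of the 40 genes. At an unadjusted p under 0.05 there was 1 of 40 genes (Cd2), where 5.69% of all genes tested passed. The log2 fold changes of TET2KO over WT ran from -0.53 for Cd2 to 0.40 for Gata3, with a median of 0.024 beside -0.075 over all genes tested. They were above 0 for 23 and below 0 for 17 of the 40 genes, where 41.6% of all genes tested were above 0. The TET2KO range stood wholly above the WT range for 0 of the 40 genes (12.4% of all genes tested) and wholly below it for 1, again Cd2 (12.4% of all genes tested). Without WT replicate 2 the median was -0.21, with 3 of 40 genes above 0 and 37 below, where 50.7% of all genes tested were above 0. Without WT replicate 3 it was 0.26, with 32 of 40 above 0 and 8 below, where 48.7% of all genes tested were above 0. Without WT replicate 2 the TET2KO range stood wholly below WT for 16 of the 40 genes (20.7% of all genes tested) and above it for 0 (22.2%). Without WT replicate 3 it stood below for 1 (19.1%) and above for 3 (21.0%). The fits without WT replicate 2 and without WT replicate 3 each called 0 of the 40 genes. Without TET2KO replicate 1 the median was -0.079, and without TET2KO replicate 2 it was 0.12. The direction of the set as a whole thus depended on which WT library and which TET2KO library were kept. In the authors' deposited table, with its other grouping, 32 of 40 fold changes were above 0, and the lowest DESeq2 adjusted p was 0.183, for Icos. The share of all its genes above 0 is not given here, so no direction is read from that count. Its selection held 217 of 18019 genes and 0 of the 40, and with so small a share the 0 says little about them.

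**Figure D1:**
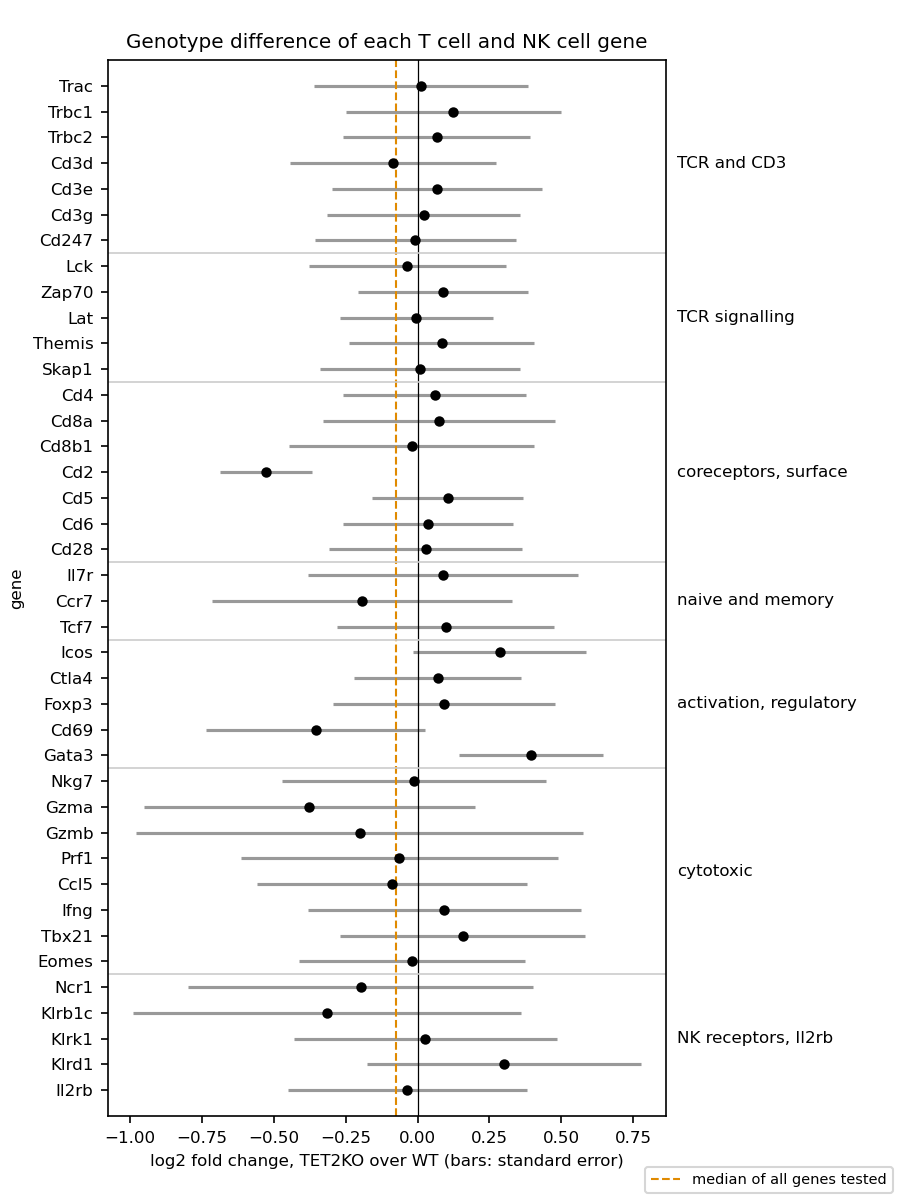
Log2 fold change of TET2KO over WT (x axis) for each of the 40 T cell and NK cell genes (y axis, by role), with points for edgeR's estimate and bars for its standard error; the dashed line is the median of all genes tested, -0.075. The estimates run from -0.53 for Cd2 to 0.40 for Gata3 on both sides of 0, and the bars are widest among the cytotoxic and NK genes.

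The widest spread lay within the WT group. WT replicate 2 had the lowest level of 36 of the 40 genes, where it was lowest for 32.9% of all genes tested. WT replicate 3 had the highest level of 25 and WT replicate 1 of 12, so that 37 of the 40 genes (92.5%) peaked in a WT library, where 70.9% of all genes tested did. Over all genes tested, WT replicate 3 was highest for 23.3%, WT replicate 1 for 12.6% and WT replicate 2, highest for 0 of the 40, for 35%. Relative to the mean of the 5 libraries, the median log2 CPM of the 40 genes stood at 0.15 and -0.036 in TET2KO replicates 1 and 2, against 0.23, -0.71 and 0.34 in WT replicates 1 to 3. Both TET2KO libraries thus lay between the WT extremes. The median SD of log2 CPM among the 3 WT libraries was 0.62 over the 40 genes and 0.37 over all genes tested. In bulk RNA, fewer cells of a type and less RNA per cell cannot be told apart.

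**Figure D2:**
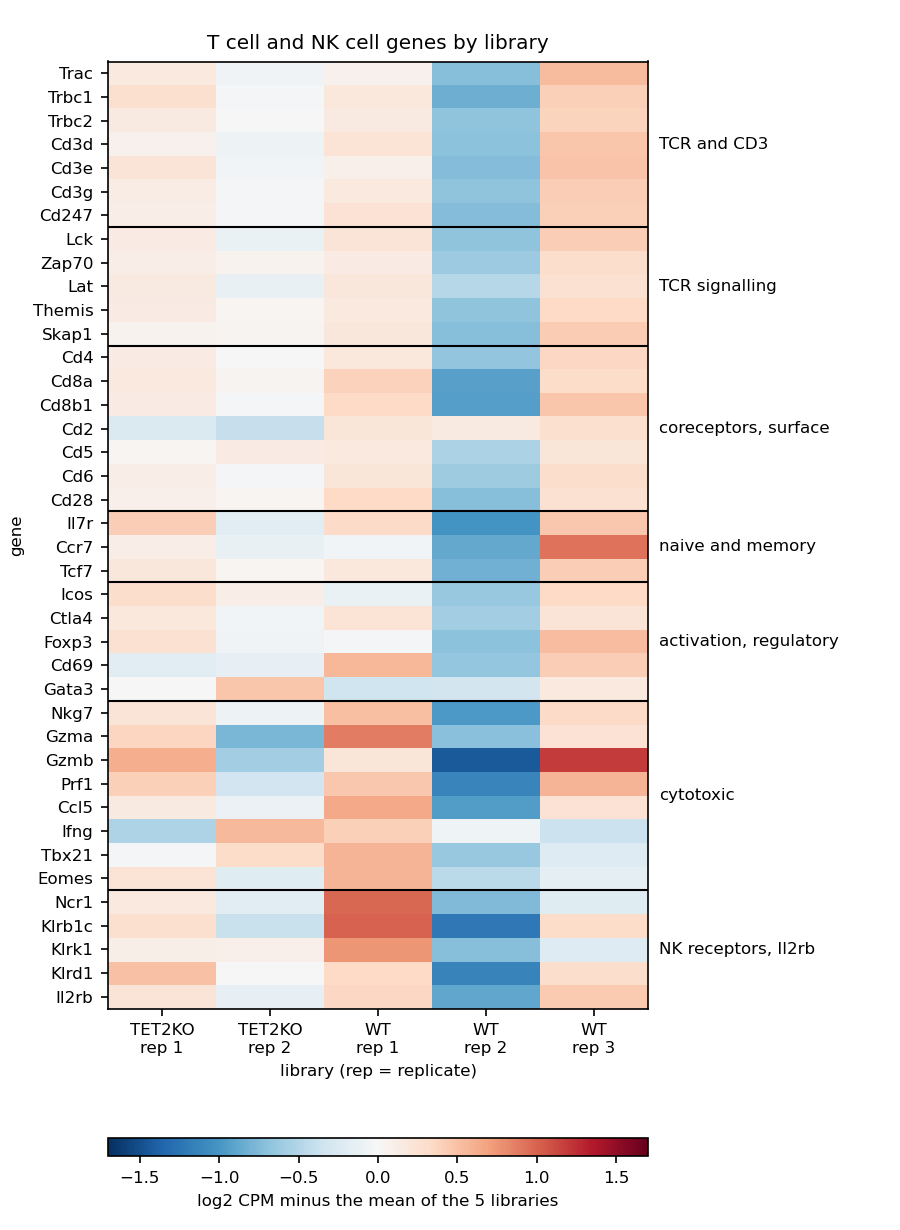
Log2 CPM of each of the 40 genes (rows, by role) in each library (columns), shown as the difference from that gene's mean over the 5 libraries, with red for higher and blue for lower. The column of WT replicate 2 is the lowest for 36 of 40 genes, the T cell receptor and CD3 rows peak in WT replicate 3, and several NK and cytotoxic rows peak in WT replicate 1.

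Markers of other cell types differed between the same libraries. As a percentage of all counts, the 7 T cell receptor and CD3 genes together took up 0.0411 and 0.0360% in TET2KO replicates 1 and 2, against 0.0402, 0.0174 and 0.0475% in WT replicates 1 to 3. A B cell list of 12 genes took up 0.495 and 0.313% in TET2KO replicates 1 and 2, against 0.562, 0.157 and 0.692% in WT replicates 1 to 3. Both lymphocyte lists were lowest in WT replicate 2 and highest in WT replicate 3. The macrophage and monocyte list was at 0.523 and 0.976% in TET2KO replicates 1 and 2, against 1.03, 3.18 and 0.345% in WT replicates 1 to 3, with the order of WT replicates 2 and 3 turned round, and its part in the lymphocyte levels was not tested. The endothelium list of 18 genes was at 0.819 and 0.856% in TET2KO replicates 1 and 2, against 0.479, 0.322 and 0.611% in WT replicates 1 to 3 and was higher in both TET2KO libraries than in any WT library. The pan-leukocyte list of 8 genes was at 0.420 and 0.394% in TET2KO replicates 1 and 2, against 0.530, 0.469 and 0.495% in WT replicates 1 to 3, lower in both TET2KO libraries. No gene of these 5 lists was at 0 in a library. Cdh5, the VE-cadherin that defines the labelled cell type, had 1256 and 1163 CPM in TET2KO replicates 1 and 2, against 628, 484 and 952 CPM in WT replicates 1 to 3.

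**Figure D3:**
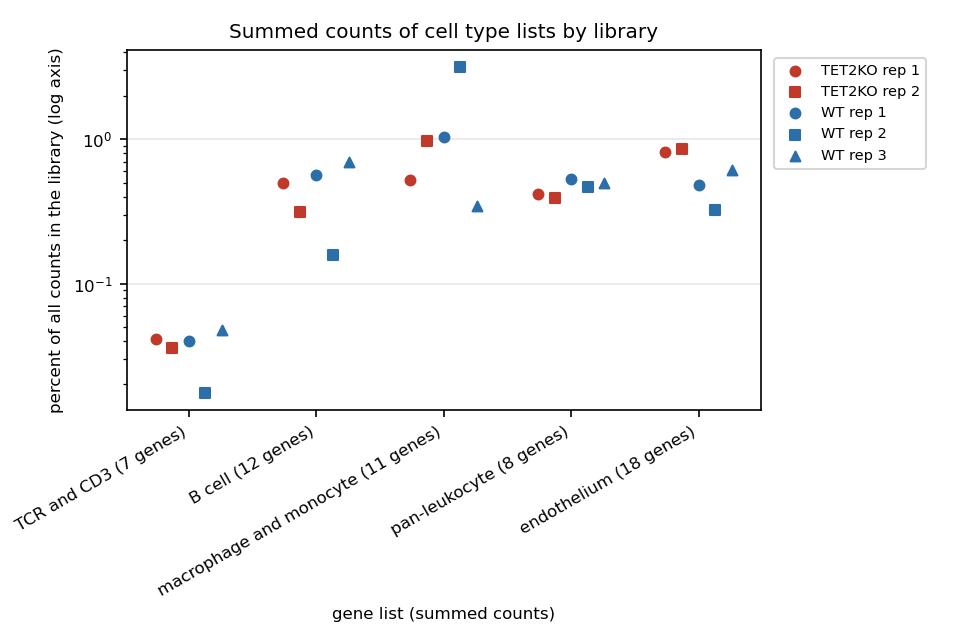
Summed counts of 5 gene lists (x axis) as a percentage of all counts in each library, on a log axis; points are libraries, red for TET2KO and blue for WT. The T cell receptor and CD3 genes and the B cell genes are lowest in WT replicate 2, where the macrophage and monocyte list reaches 3.18%.

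The direction of the estimates depended on the scale. With library sizes set by the endothelium list, all 40 genes had log2 fold changes below 0 in TET2KO, with a median of -0.67. Set by the pan-leukocyte list, 39 of 40 were above 0, with a median of 0.43. These scalings moved the median of all genes to -0.82 and 0.36, so that the 40 genes stood 0.15 and 0.076 above it, beside 0.099 with TMM scaling. Each of these scalings called 0 of the 40 genes. As a share of the pan-leukocyte counts, the summed T cell receptor and CD3 counts came to 9.78 and 9.14% in TET2KO replicates 1 and 2, against 7.58, 3.71 and 9.60% in WT replicates 1 to 3. Both groups overlapped, and WT replicate 2 was the library that stood low.

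Levels between genes were compared in TPM, the deposited values scaled by gene length. The mean over the 5 libraries ran from 2.88 TPM for Ncr1 to 903 TPM for Ccr7, with a median of 45.1 TPM over the 40 genes, and 9 genes were at 100 TPM or more. Those 9 were Ccr7, Cd2, Trbc2, Tcf7, Il7r, Trbc1, Trac, Lck and Il2rb. Ccr7 averaged 885 ± 102 TPM in TET2KO (SD, n = 2) and 916 ± 616 TPM in WT (SD, n = 3). Trbc2 averaged 408 ± 27.5 TPM in TET2KO (SD, n = 2) and 350.2 ± 156 TPM in WT (SD, n = 3). Ncr1 averaged 2.80 ± 0.498 TPM in TET2KO (SD, n = 2) and 2.94 ± 2.21 TPM in WT (SD, n = 3). The gap between each gene and the next in this order was smaller than the WT SD of the higher gene. That SD is between libraries, in which genes can rise and fall together, so it does not measure the spread of a difference between neighbours. Ccr7 stood above Cd2, and Trac above Lck, in all 5 libraries, while Lck and Il2rb changed order between libraries. Differences between neighbours were not tested. The 6 lowest genes were Tbx21, Klrk1, Eomes, Ifng, Klrb1c and Ncr1, all of them cytotoxic or NK genes.

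**Figure D4:**
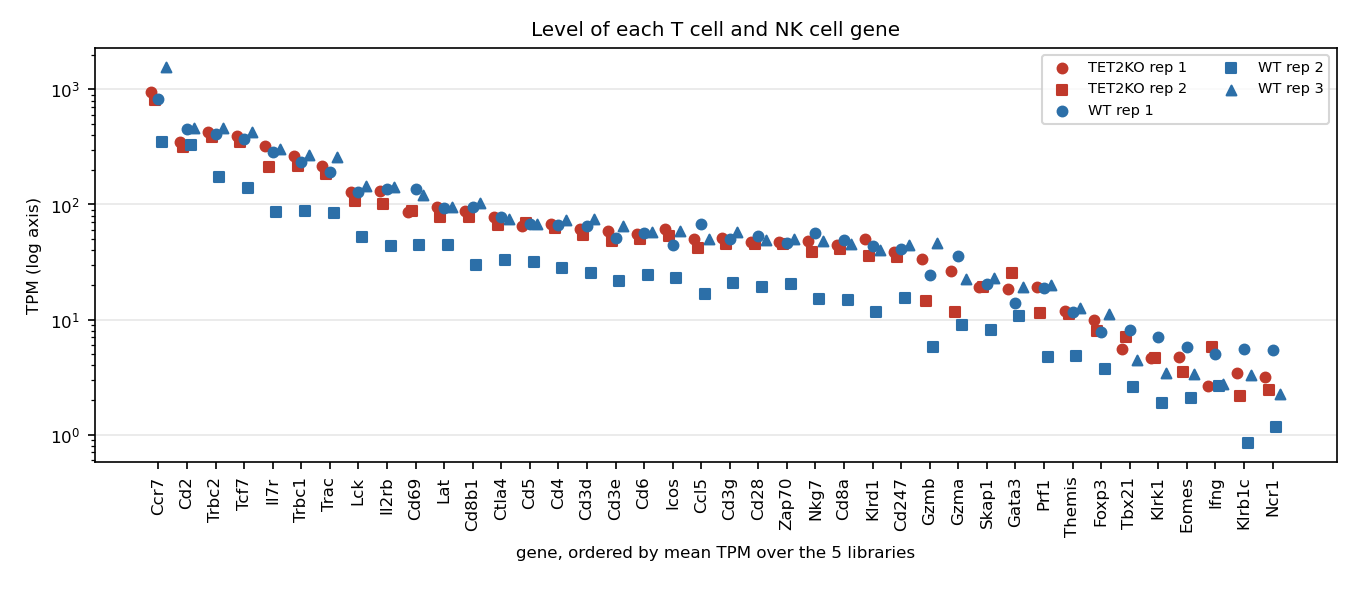
TPM of each of the 40 genes (x axis, ordered by mean TPM) on a log axis, with 1 point per library, red for TET2KO and blue for WT. The levels span from Ccr7 at the top to Ncr1 at the bottom, the 2 groups overlap for each of the 40 genes on this scale, and WT replicate 2 (blue squares) is mostly the lowest.

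The chains of the receptor itself had estimates smaller than their standard errors in the 4 genes given here. Cd3e, the epsilon chain of CD3, had 65.7 and 54.2 CPM in TET2KO replicates 1 and 2, against 59.4, 33.6 and 78.7 CPM in WT replicates 1 to 3. The log2 fold change of Cd3e was 0.067 (SE 0.37, edgeR adjusted p = 0.976). Trac, the constant region of the alpha chain, had 55.5 and 47.3 CPM in TET2KO replicates 1 and 2, against 51.6, 29.7 and 71.6 CPM in WT replicates 1 to 3. For Trac the log2 fold change was 0.012 (SE 0.37, edgeR adjusted p = 0.995). Neither gene separated the groups. Cd3d, the delta chain, had 30.2 and 27.1 CPM in TET2KO replicates 1 and 2, against 33.8, 17.6 and 39.7 CPM in WT replicates 1 to 3, a log2 fold change of -0.086 (SE 0.36). Cd3g, the gamma chain, had 45.4 and 40.7 CPM in TET2KO replicates 1 and 2, against 46.5, 25.7 and 55.1 CPM in WT replicates 1 to 3, a log2 fold change of 0.021 (SE 0.34). In each of these 4 genes the TET2KO libraries lay inside the WT range. Cd247, the zeta chain, had 56.4 and 51.6 CPM in TET2KO replicates 1 and 2, against 62.0, 31.4 and 69.3 CPM in WT replicates 1 to 3. Trbc1, a constant region of the beta chain, had 53.6 and 44.0 CPM in TET2KO replicates 1 and 2, against 50.4, 25.1 and 58.8 CPM in WT replicates 1 to 3. Trbc2, the other such region, had 81.0 and 73.8 CPM in TET2KO replicates 1 and 2, against 81.4, 45.4 and 95 CPM in WT replicates 1 to 3. All 7 genes ranked WT replicate 2 lowest and WT replicate 3 highest, and 0 of 7 passed the test.

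Trbc1 and Trbc2 are near copies, 6848 bp apart on chromosome 6 and on the same strand. Their longest transcripts in GENCODE M21 aligned with 86.3% identity over 677 bases, with an identical run of 259 bases, longer than the 150-base reads. The sources used here do not say how reads of that run were counted, so the split between the pair is uncertain. The count ratio of Trbc1 to Trbc2 was 0.662 and 0.596 in TET2KO replicates 1 and 2, against 0.618, 0.554 and 0.619 in WT replicates 1 to 3.

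Several of the 40 genes are neighbours. On chromosome 9 of GRCm38, Cd3g (44969572 to 44980431, minus strand) and Cd3d (44981786 to 44987339, plus strand) lie 1354 bp apart and point away from each other, and Cd3e (44998740 to 45009627, minus strand) lies 11400 bp beyond Cd3d. Cd28, Ctla4 and Icos follow each other on chromosome 1, Cd8b1 and Cd8a on chromosome 6, Cd5 and Cd6 on chromosome 19, and Klrk1 and Klrd1 on chromosome 6 inside the NK gene cluster. Chromosome 6 carried 9 of the 40 genes. Of the 40, 7 share exonic bases with a gene on the opposite strand, Cd3e, Cd247, Foxp3 and Gata3 among them. No strand setting was stated, so it is not known whether reads of such pairs were told apart.

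The CD3 genes, Lck, Gzmb and Prf1 all had WT replicate 2 lowest and WT replicate 3 highest. Ncr1 had WT replicate 2 lowest and WT replicate 1 highest. Promoters are shown for the CD3 genes, Lck and these 3 cytotoxic or NK genes, so that the T cell and killer genes can be read side by side. Each is the 250 bases before the RefSeq start on GRCm38.p6, 5′ to 3′ on the gene's strand. Lck and Ncr1 have 2 such starts each, and the most upstream is shown. The bases just after the start were found in 0 of 1 GENCODE M21 transcripts of Gzmb and 0 of 2 of Prf1, so these 2 windows are less certainly placed. Capitals mark GGAAGT (an ETS core with its flank), TGTGGT (a RUNX core) or TCACAC (a T-box core), on either strand.
Cd3g, chr9:44980432-44980681, minus strand: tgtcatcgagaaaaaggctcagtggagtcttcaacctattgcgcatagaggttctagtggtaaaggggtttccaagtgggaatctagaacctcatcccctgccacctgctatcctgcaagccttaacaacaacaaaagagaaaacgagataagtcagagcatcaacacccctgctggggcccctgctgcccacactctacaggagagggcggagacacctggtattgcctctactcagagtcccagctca
Cd3d, chr9:44981536-44981785, plus strand: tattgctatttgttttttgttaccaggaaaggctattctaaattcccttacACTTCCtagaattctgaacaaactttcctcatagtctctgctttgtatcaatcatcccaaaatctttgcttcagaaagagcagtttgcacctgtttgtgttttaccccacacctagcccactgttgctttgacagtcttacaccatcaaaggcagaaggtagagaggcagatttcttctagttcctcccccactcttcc
Cd3e, chr9:45009612-45009861, minus strand: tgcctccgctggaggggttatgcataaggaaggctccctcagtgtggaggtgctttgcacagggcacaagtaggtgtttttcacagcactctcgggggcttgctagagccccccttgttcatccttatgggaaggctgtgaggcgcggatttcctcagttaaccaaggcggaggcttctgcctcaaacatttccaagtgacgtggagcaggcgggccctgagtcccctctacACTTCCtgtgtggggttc
Lck, chr4:129573642-129573891, minus strand: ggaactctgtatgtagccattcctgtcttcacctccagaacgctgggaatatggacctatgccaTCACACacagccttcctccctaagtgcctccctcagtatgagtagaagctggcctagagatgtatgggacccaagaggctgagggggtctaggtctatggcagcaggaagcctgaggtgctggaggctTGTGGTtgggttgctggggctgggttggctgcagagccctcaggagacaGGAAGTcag
Gzmb, chr14:56262335-56262584, minus strand: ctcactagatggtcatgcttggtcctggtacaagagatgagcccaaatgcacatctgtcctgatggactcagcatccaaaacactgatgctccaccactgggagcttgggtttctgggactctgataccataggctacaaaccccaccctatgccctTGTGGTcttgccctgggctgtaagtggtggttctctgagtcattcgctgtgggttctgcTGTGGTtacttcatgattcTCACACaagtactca
Prf1, chr10:61297586-61297835, plus strand: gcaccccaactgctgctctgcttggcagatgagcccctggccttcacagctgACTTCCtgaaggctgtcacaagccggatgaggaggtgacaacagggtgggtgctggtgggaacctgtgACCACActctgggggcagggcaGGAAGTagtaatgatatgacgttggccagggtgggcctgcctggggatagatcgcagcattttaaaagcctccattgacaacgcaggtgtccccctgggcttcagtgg
Ncr1, chr7:4337465-4337714, plus strand: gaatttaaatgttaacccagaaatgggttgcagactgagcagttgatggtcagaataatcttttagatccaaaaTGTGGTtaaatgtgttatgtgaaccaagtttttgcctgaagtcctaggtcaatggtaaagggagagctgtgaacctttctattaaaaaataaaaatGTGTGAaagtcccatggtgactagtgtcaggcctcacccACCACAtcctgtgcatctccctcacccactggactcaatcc

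Cd3d and Cd3e each hold 1 GGAAGT match, and Cd3g holds none of the motifs. Lck holds 1 match of each motif. Gzmb and Ncr1 hold 2 TGTGGT matches and 1 TCACAC match each, and Prf1 holds 2 GGAAGT matches and 1 TGTGGT match. RefSeq entries were at hand for 26 of the 41 genes, among them Bcl11b, which held GGAAGT and TCACAC and whose expression was not analysed here. Of these 26, 12 held GGAAGT (46.2%, beside 22.2% of 27025 genes with such windows), 9 held TGTGGT (34.6%, beside 15.9%) and 6 held TCACAC (23.1%, beside 13.9%). The 3 motifs were chosen with the genes known, matches of different motifs can share letters at their ends, and a match is a run of letters and not a site.

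The kinases and adaptors downstream of the receptor ranked the libraries in the same way. Lck, the kinase that phosphorylates the CD3 chains, had 103 and 86.4 CPM in TET2KO replicates 1 and 2, against 108, 58.1 and 125 CPM in WT replicates 1 to 3. Zap70, the kinase that binds them next, had 38.3 and 37.0 CPM in TET2KO replicates 1 and 2, against 39.2, 23.1 and 43.8 CPM in WT replicates 1 to 3. Both TET2KO libraries lay inside the WT range for these 2 kinases. The adaptor Lat had 72.3 and 59.6 CPM in TET2KO replicates 1 and 2, against 74.4, 46.5 and 77.6 CPM in WT replicates 1 to 3. Themis, a regulator of thymocyte selection, had 29.4 and 27.4 CPM in TET2KO replicates 1 and 2, against 29.96, 16.7 and 33.8 CPM in WT replicates 1 to 3. Skap1, an adaptor for integrin activation, had 39.5 and 39.0 CPM in TET2KO replicates 1 and 2, against 43.5, 22.8 and 50.8 CPM in WT replicates 1 to 3. All 5 were lowest in WT replicate 2 and highest in WT replicate 3, their log2 fold changes ran from -0.036 to 0.088, and 0 of 5 passed the test.

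Helper and cytotoxic coreceptors were both present. Cd4, the coreceptor of helper T cells, had 75.4 and 68.7 CPM in TET2KO replicates 1 and 2, against 77.2, 43.0 and 87.3 CPM in WT replicates 1 to 3. This gave a log2 fold change of 0.059 (SE 0.32). Cd8a, the alpha chain of the cytotoxic coreceptor, had 44.0 and 40.6 CPM in TET2KO replicates 1 and 2, against 51.4, 20.6 and 48.5 CPM in WT replicates 1 to 3, a log2 fold change of 0.073 (SE 0.40). In both genes the TET2KO libraries lay inside the WT range. The ratio of Cd8a to Cd4 counts was 0.584 and 0.590 in TET2KO replicates 1 and 2, against 0.666, 0.480 and 0.556 in WT replicates 1 to 3. It was lowest in WT replicate 2 and highest in WT replicate 1, with both TET2KO libraries in between. Cd8b1, the beta chain of CD8, had 35.4 and 31.8 CPM in TET2KO replicates 1 and 2, against 40.7, 16.7 and 44.6 CPM in WT replicates 1 to 3. Cd28, the costimulatory receptor of naive T cells, had 78.4 and 75.5 CPM in TET2KO replicates 1 and 2, against 93.1, 44.8 and 88.7 CPM in WT replicates 1 to 3. Both genes were lowest in WT replicate 2. Cd5, a scavenger-family receptor that dampens receptor signalling, had 36.6 and 39.4 CPM in TET2KO replicates 1 and 2, against 40.2, 24.6 and 41.3 CPM in WT replicates 1 to 3. Cd6, a related receptor that binds ALCAM, had 51.5 and 46.9 CPM in TET2KO replicates 1 and 2, against 54.5, 31.3 and 58.3 CPM in WT replicates 1 to 3. These 4 genes had log2 fold changes between -0.019 and 0.10.

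Cd2 was the one gene of the 40 in which the groups did not overlap. This adhesion receptor, which in the mouse is carried by B cells as well as T cells, had 166 and 151 CPM in TET2KO replicates 1 and 2, against 228, 218 and 238 CPM in WT replicates 1 to 3. Both TET2KO libraries lay below all 3 WT libraries, and the WT libraries lay close together, WT replicate 2 included. The log2 fold change was -0.53 (SE 0.16), with an unadjusted p of 0.0181 that did not survive the correction (edgeR adjusted p = 0.778). It kept its sign under all 17 alternatives, between -1.27 with endothelium scaling and -0.098 with pan-leukocyte scaling. The ratio of Cd2 to Cd3e counts was 2.52 and 2.78 in TET2KO replicates 1 and 2, against 3.83, 6.502 and 3.03 in WT replicates 1 to 3, highest in the library with the fewest T cell and B cell counts. On the TPM scale Cd2 had 348 and 316 TPM in TET2KO replicates 1 and 2, against 457, 330.1 and 465 TPM in WT replicates 1 to 3, and there the groups overlapped. The pan-leukocyte list was lower in both TET2KO libraries too, and its part in the Cd2 values was not tested.

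**Figure D5:**
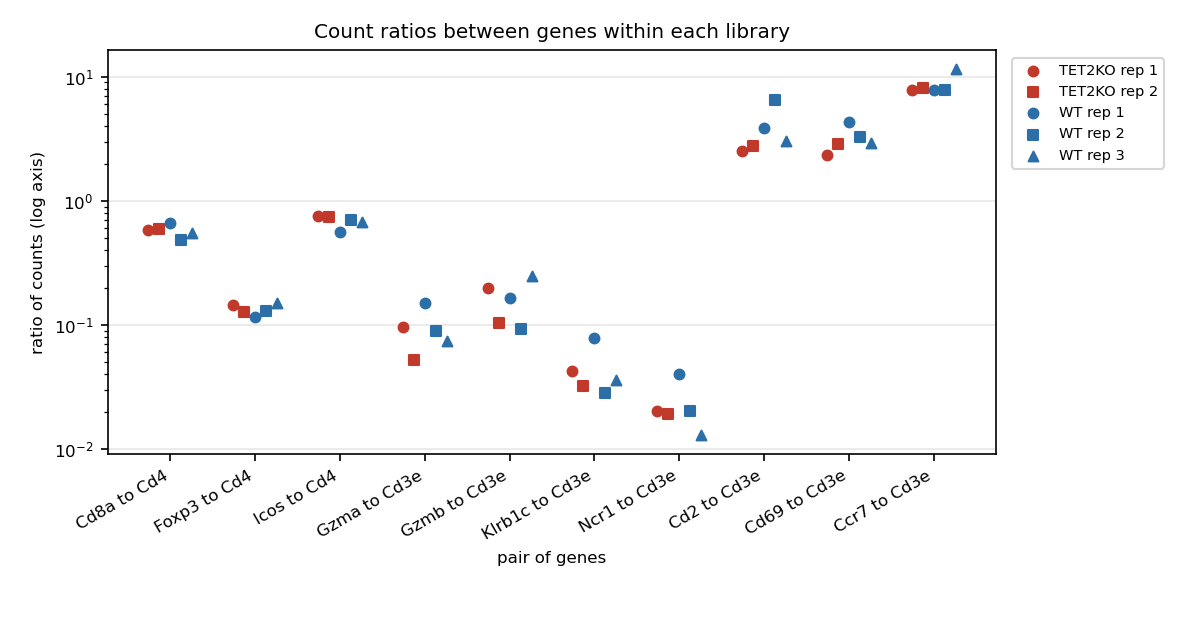
Ratios of counts between pairs of genes (x axis) within each library, on a log axis; points are libraries, red for TET2KO and blue for WT. The groups do not overlap for Icos to Cd4, Cd2 to Cd3e and Cd69 to Cd3e, and overlap for the other pairs drawn.

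The genes of naive and memory T cells included the most abundant of the set. Ccr7, the chemokine receptor for entry into lymph nodes, which B cells and migrating dendritic cells also carry, had 518 and 441 CPM in TET2KO replicates 1 and 2, against 467, 262 and 915 CPM in WT replicates 1 to 3. Its log2 fold change was -0.19 (SE 0.52), and WT replicate 3 alone set the top of the range. The ratio of Ccr7 to Cd3e counts was 7.89 and 8.12 in TET2KO replicates 1 and 2, against 7.87, 7.82 and 11.6 in WT replicates 1 to 3, alike in 4 libraries and higher in WT replicate 3. Il7r, the receptor chain for the survival cytokine interleukin-7, had 280.3 and 184 CPM in TET2KO replicates 1 and 2, against 263, 104 and 288 CPM in WT replicates 1 to 3, a log2 fold change of 0.089 (SE 0.47). Tcf7, the transcription factor TCF1 of naive and memory cells, had 280.2 and 249 CPM in TET2KO replicates 1 and 2, against 277, 138 and 328 CPM in WT replicates 1 to 3. All 3 genes were highest in WT replicate 3 and lowest in WT replicate 2, and 0 of 3 passed the test.

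The activation and regulatory genes included the largest positive estimate, that of Gata3. Foxp3 had 10.9 and 8.68 CPM in TET2KO replicates 1 and 2, against 8.94, 5.58 and 13.03 CPM in WT replicates 1 to 3, a log2 fold change of 0.090 (SE 0.39). The ratio of Foxp3 to Cd4 counts was 0.144 and 0.126 in TET2KO replicates 1 and 2, against 0.116, 0.130 and 0.149 in WT replicates 1 to 3, so the groups overlapped. Ctla4, an inhibitory receptor of regulatory and activated T cells, had 50.0 and 42.5 CPM in TET2KO replicates 1 and 2, against 51.9, 29.3 and 51.1 CPM in WT replicates 1 to 3. Its counts stood at a ratio to Cd4 of 0.663 and 0.618 in TET2KO replicates 1 and 2, against 0.672, 0.682 and 0.585 in WT replicates 1 to 3, and the groups overlapped. Icos, a costimulatory receptor of activated and follicular helper T cells, had 57.4 and 50.5 CPM in TET2KO replicates 1 and 2, against 43.5, 30.01 and 59.4 CPM in WT replicates 1 to 3. The log2 fold change of Icos was 0.29 (SE 0.30, edgeR adjusted p = 0.876), and WT replicate 3 lay above both TET2KO libraries. Per Cd4 count, Icos stood at 0.761 and 0.735 in TET2KO replicates 1 and 2, against 0.563, 0.699 and 0.680 in WT replicates 1 to 3. The groups did not overlap, but TET2KO replicate 2 and WT replicate 2 lay close. Of 22 ratios computed, 3 had no overlap in either direction, a share no higher than among all genes tested, where 12.4% lay above and 12.4% below, so no difference is read from them.

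Cd69, an early activation marker and a marker of cells resident in tissue, had 154 and 157 CPM in TET2KO replicates 1 and 2, against 256, 109 and 231 CPM in WT replicates 1 to 3. The log2 fold change of Cd69 was -0.35 (SE 0.38, edgeR adjusted p = 0.876). Per Cd3e count both TET2KO libraries were the lowest, though close to WT replicate 3, with ratios of 2.34 and 2.90 in TET2KO replicates 1 and 2, against 4.31, 3.26 and 2.93 in WT replicates 1 to 3. Without WT replicate 2 the log2 fold change of Cd69 was -0.62, also not past the threshold. Gata3, the transcription factor of type 2 helper cells and of type 2 innate lymphoid cells, had 20.2 and 27.8 CPM in TET2KO replicates 1 and 2, against 15.9, 16.2 and 22.6 CPM in WT replicates 1 to 3. Its log2 fold change of 0.40 (SE 0.25) had an edgeR adjusted p of 0.875, and it differed from the T cell receptor genes in order, with TET2KO replicate 2 at the top and WT replicate 1 at the bottom. Bulk RNA does not show which cells the Gata3 counts came from. The endothelium list was higher in both TET2KO libraries than in WT, and its part in the Gata3 values was not tested. Of the 5 activation and regulatory genes 0 passed the test.

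Cytotoxic genes came next, and most stood low. Gzmb, the serine protease granzyme B, had 13.1 and 5.64 CPM in TET2KO replicates 1 and 2, against 9.81, 3.11 and 19.4 CPM in WT replicates 1 to 3. For Gzmb the log2 fold change was -0.20 (SE 0.78), and both TET2KO libraries lay inside the WT range. Gzma, granzyme A, had 6.31 and 2.82 CPM in TET2KO replicates 1 and 2, against 9.01, 2.97 and 5.81 CPM in WT replicates 1 to 3, a log2 fold change of -0.38 (SE 0.57). Prf1, the pore-forming perforin, had 10.7 and 6.42 CPM in TET2KO replicates 1 and 2, against 11.1, 3.68 and 12.1 CPM in WT replicates 1 to 3. Ccl5, a chemokine of cytotoxic and memory T cells, had 13.2 and 11.1 CPM in TET2KO replicates 1 and 2, against 18.6, 6.12 and 14.1 CPM in WT replicates 1 to 3. WT replicate 2 was lowest for both Prf1 and Ccl5. Nkg7, a granule membrane protein, had 12.02 and 9.68 CPM in TET2KO replicates 1 and 2, against 14.6, 5.21 and 12.96 CPM in WT replicates 1 to 3. Ifng, the cytokine interferon gamma, had 0.876 and 1.91 CPM in TET2KO replicates 1 and 2, against 1.72, 1.22 and 0.985 CPM in WT replicates 1 to 3. These 2 genes also had overlapping groups. Tbx21, the T-box factor T-bet, had 3.75 and 4.76 CPM in TET2KO replicates 1 and 2, against 5.75, 2.43 and 3.27 CPM in WT replicates 1 to 3. Eomes, its relative in NK and memory CD8 T cells, had 5.38 and 3.95 CPM in TET2KO replicates 1 and 2, against 6.80, 3.28 and 4.10 CPM in WT replicates 1 to 3. Across the 8 cytotoxic genes 2 had log2 fold changes above 0 and 6 below, the median was -0.041, and 0 passed the test. Without WT replicate 2 these counts were 1 above 0 and 7 below, and without WT replicate 3 they were 5 and 3.

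The NK receptors included the genes with the fewest counts. Ncr1, the NKp46 receptor that defines NK cells, had 44 and 33 counts in TET2KO replicates 1 and 2, against 68, 20 and 32 in WT replicates 1 to 3, or 1.33 and 1.03 CPM in TET2KO replicates 1 and 2, against 2.38, 0.676 and 1.017 CPM in WT replicates 1 to 3. The estimate for Ncr1 was a log2 fold change of -0.20 (SE 0.60). Klrb1c, the NK1.1 antigen of C57BL/6 mice, had 2.78 and 1.75 CPM in TET2KO replicates 1 and 2, against 4.66, 0.946 and 2.86 CPM in WT replicates 1 to 3, a log2 fold change of -0.31 (SE 0.67). Klrk1, the activating receptor NKG2D of NK and CD8 T cells, had 9.12 and 9.05 CPM in TET2KO replicates 1 and 2, against 14.4, 5.10 and 7.31 CPM in WT replicates 1 to 3. These 3 genes were highest in WT replicate 1 and not in WT replicate 3, where the T cell receptor genes peaked. Klrd1, the CD94 partner of NKG2 receptors, had 17.6 and 12.5 CPM in TET2KO replicates 1 and 2, against 15.8, 5.61 and 15.3 CPM in WT replicates 1 to 3, a log2 fold change of 0.30 (SE 0.48). Il2rb, the beta chain of the interleukin-2 and interleukin-15 receptors, was far more abundant, with 99.02 and 77.8 CPM in TET2KO replicates 1 and 2, against 109, 46.2 and 116 CPM in WT replicates 1 to 3. Of these 5 genes 0 passed the test. Counts were low for some: 7 of the 40 genes had a library with 100 counts or fewer, all of them cytotoxic or NK genes.

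The balance between the programmes varied among the WT libraries. The 8 cytotoxic genes summed, per T cell receptor and CD3 count, to 0.169 and 0.137 in TET2KO replicates 1 and 2, against 0.201, 0.134 and 0.155 in WT replicates 1 to 3, highest in WT replicate 1. The 5 NK receptor and interleukin-2 receptor genes gave 0.335 and 0.301 in TET2KO replicates 1 and 2, against 0.380, 0.281 and 0.305 in WT replicates 1 to 3, again highest in WT replicate 1. The naive and memory genes gave 2.78 and 2.58 in TET2KO replicates 1 and 2, against 2.62, 2.42 and 3.27 in WT replicates 1 to 3, highest in WT replicate 3. There Ccr7, which B cells also carry, held 28803 of the 48180 counts of this sum. In that library the log2 CPM of Ccr7 stood 0.93 above its mean over the libraries. Il7r stood 0.46 and Tcf7 0.42 above, beside a median of 0.41 for the T cell receptor and CD3 genes. The peak of this sum was thus that of Ccr7. Of the 12 genes that peaked in WT replicate 1, 8 were cytotoxic or NK genes, while all 12 receptor chain and signalling genes peaked in WT replicate 3. For Klrb1c, the ratio to Cd3e was 0.0423 and 0.0323 in TET2KO replicates 1 and 2, against 0.0785, 0.0282 and 0.0363 in WT replicates 1 to 3.

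Other genes of the same pathways were examined in 6 lists of 107 genes, of which 101 were tested. Of these 101, 0 passed the adjusted threshold, 51 had log2 fold changes above 0 and 50 below, and the median was 0.002. Among all genes tested 41.6% were above 0. Of the 101 genes, 9 had both TET2KO libraries above WT and 6 had both below, where 12.4% of all genes tested did so in each direction. At an unadjusted p under 0.05 there were 5 of 101, beside 5.69% of all genes tested. Without WT replicate 2, 28 were above 0 and 73 below, where 50.7% of all genes tested were above 0. TET2KO then stood wholly above WT for 10 (22.2% of all genes tested) and wholly below for 31 (20.7%). Without WT replicate 3, 69 of the 100 still tested were above 0 and 31 below, where 48.7% of all genes tested were above 0. TET2KO then stood wholly above WT for 21 (21.0% of all genes tested) and wholly below for 9 (19.1%). Neither fit called any of these genes.

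The further T cell receptor signalling list held 19 genes with a median of -0.031. Its genes with the smallest p included Vav1, a guanine nucleotide exchange factor of haematopoietic cells, and Plcg1, the phospholipase downstream of Lat. Vav1 had 136 and 124 CPM in TET2KO replicates 1 and 2, against 183, 195 and 159 CPM in WT replicates 1 to 3, both TET2KO libraries below WT. Plcg1, which is expressed in most cell types, endothelium included, had 256 and 241 CPM in TET2KO replicates 1 and 2, against 178, 163 and 207 CPM in WT replicates 1 to 3, both TET2KO libraries above WT. The list of further T cell identity genes (20 genes) had a median of 0.002, and its smallest p values belonged to Tnfrsf25, Cd27 and Cd40lg. Tnfrsf25, the death receptor DR3, had 12.6 and 12.2 CPM in TET2KO replicates 1 and 2, against 9.15, 7.23 and 8.67 CPM in WT replicates 1 to 3, both TET2KO libraries above WT.

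The regulatory T cell and checkpoint list (15 genes) had a median of 0.020, led by Lrrc32, Il10 and Lag3. Lrrc32, the TGF-beta docking receptor GARP of regulatory T cells that endothelium and platelets also carry, had 95.6 and 90.9 CPM in TET2KO replicates 1 and 2, against 51.3, 50.9 and 75.8 CPM in WT replicates 1 to 3. Il10, an anti-inflammatory cytokine, had 4.05 and 6.23 CPM in TET2KO replicates 1 and 2, against 2.59, 3.04 and 3.84 CPM in WT replicates 1 to 3. In all 3 genes both TET2KO libraries lay above WT, and the endothelium list lay above WT in both as well; its part in these values was not tested. The list of helper cytokines and lineage factors had a median of 0.13 over 16 tested genes, led by Zbtb16, Maf and Il5. Zbtb16, the zinc finger factor PLZF of innate-like T cells and of many other cell types, had 277 and 131 CPM in TET2KO replicates 1 and 2, against 44.4, 42.4 and 80.9 CPM in WT replicates 1 to 3. Its edgeR adjusted p of 0.778 missed the threshold.

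The list of further NK and cytotoxic genes had a median of -0.039 over 22 tested genes, led by Serpinb9, Cd160 and Cma1. Serpinb9, the inhibitor of granzyme B, had 27.4 and 32.1 CPM in TET2KO replicates 1 and 2, against 22.4, 25.8 and 22.6 CPM in WT replicates 1 to 3, both TET2KO libraries above WT. Cd160, a receptor of NK and CD8 T cells, had 1.09 and 1.03 CPM in TET2KO replicates 1 and 2, against 2.56, 1.35 and 1.59 CPM in WT replicates 1 to 3, both TET2KO libraries below WT. The gamma delta T cell list had a median of -0.24 over 9 genes, 7 of them below 0, where 41.6% of all genes tested were above 0. Without WT replicate 2, 8 of 9 were below 0, where 50.7% of all genes tested were above 0. Without WT replicate 3, 5 of 9 were below 0, where 48.7% of all genes tested were above 0. Trdc, the constant region of the delta chain, had 7.85 and 6.86 CPM in TET2KO replicates 1 and 2, against 11.04, 5.68 and 12.7 CPM in WT replicates 1 to 3, and the groups overlapped. Tcrg-V6 and Sox13 also led this list. Sox13, a transcription factor of gamma delta T cells that is not restricted to them, had 178 and 134 CPM in TET2KO replicates 1 and 2, against 73.5, 57.9 and 91.8 CPM in WT replicates 1 to 3, both TET2KO libraries above WT, and its edgeR adjusted p of 0.778 missed the threshold.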

How the data were processed

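Poly(A) RNA of 2 TET2KO and 3 WT lung endothelial cell libraries was sequenced as paired 150-base reads, per the labels. The submitters' processing notes name Trimmomatic (0.36) and STAR (2.5.2b), featureCounts from Subread (1.5.2) and DESeq2, on build GRCm38. The authors deposited raw counts per gene and TPM values. They also deposited 2 comparison tables with log2 fold changes, p-values and counts divided by a size factor, a normalized signal.

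Raw counts were tested in R 4.3.3 with edgeR 4.0.16 (TMM, filterByExpr, quasi-likelihood F test, genotype only, Benjamini-Hochberg over 18727 genes, threshold 0.05). The standard error was taken as the log2 fold change over √F. Log2 CPM used a prior count of 2. The biological coefficient of variation was 0.339. Alternatives were DESeq2 1.42.0, limma 3.58.1 (voom, or log2(TPM + 1) and log2(TPM + 0.1)), other scalings and filters, each library left out, and a replicate block.

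Members and lists were chosen with earlier results of these data known. All 40 genes found were accounted for. From each pathway list the 3 genes with the smallest p were named, apart from 1 gene that is not reported here. Log2 fold changes are printed for 18 genes, chosen by role. Positions are from GENCODE M21 (GRCm38), in which all 40 gene IDs matched, and promoters from RefSeq. Proteins were not analysed here.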

Additional observations from a re-analysis of the deposited data

How the results depend on the processing

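The count of T cell and NK cell genes past the adjusted threshold was 0 of 40 under all 17 alternatives, and over all genes DESeq2 alone made calls (60). The members' median log2 fold change was 0.024, between -0.21 and 0.26 with 1 library left out, and -0.67 with endothelium scaling. The replicate numbers share only a number. Deviations correlated across genes at 0.22 for number 1 and 0.49 for number 2. For TET2KO replicate 1 with WT replicates 2 and 3 the values were -0.493 and 0.455. With 2 TET2KO libraries, the values of 1 library mirror those of the other, so they cannot tell whether equal numbers are paired. With the replicate numbers as a block the median was 0.31 and 0 genes were called. In that fit WT replicate 3 is alone in its block and bears on the genotype estimate only through scaling and spread. The block fit is therefore close to the fit without WT replicate 3, where the median was 0.26, and is not a separate check. None of the 18 genes printed with a log2 fold change was called in any fit, and the cause of the sign changes was not tested. With endothelium scaling, log2 fold changes of the opposite sign were -0.66 for Trac, -0.60 for Cd3e, -0.66 for Cd3g, -0.63 for Cd4, -0.61 for Cd8a, -0.57 for Il7r, -0.40 for Icos, -0.58 for Foxp3, -0.33 for Gata3 and -0.37 for Klrd1. With library totals, log2 fold changes of the opposite sign were 0.013 for Cd3d. With pan-leukocyte scaling, log2 fold changes of the opposite sign were 0.32 for Cd3d, 0.20 for Ccr7, 0.056 for Cd69, 0.017 for Gzma, 0.17 for Gzmb, 0.21 for Ncr1 and 0.079 for Klrb1c. With the replicate number as a block, log2 fold changes of the opposite sign were 0.23 for Cd3d, 0.45 for Ccr7 and 0.63 for Gzmb. By limma on log2(TPM + 1), log2 fold changes of the opposite sign were 0.20 for Cd3d, 0.20 for Ccr7, 0.21 for Gzmb, 0.091 for Ncr1 and 0.010 for Klrb1c. By limma on log2(TPM + 0.1), log2 fold changes of the opposite sign were 0.20 for Cd3d, 0.20 for Ccr7, 0.24 for Gzmb, 0.19 for Ncr1 and 0.11 for Klrb1c. By limma-voom, log2 fold changes of the opposite sign were 0.027 for Gzmb. With 1 library left out, where a lone TET2KO library is assumed to vary like the rest, log2 fold changes that changed sign ran from -0.24 to 0.37 for Trac, -0.34 to 0.19 for Cd3d, -0.18 to 0.40 for Cd3e, -0.21 to 0.29 for Cd3g, -0.16 to 0.30 for Cd4, -0.21 to 0.29 for Cd8a, -0.25 to 0.38 for Il7r, -0.51 to 0.43 for Ccr7, -0.14 to 0.46 for Foxp3, -1.08 to 0.091 for Gzma, -0.94 to 0.58 for Gzmb, -0.48 to 0.48 for Ncr1, -0.70 to 0.25 for Klrb1c and -0.019 to 0.53 for Klrd1. Cd2, Icos, Cd69 and Gata3 kept their sign without any 1 library. The lowest count of any member was 20, for Ncr1 in WT replicate 2.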
